A study of Rattus norvegicus with 30 samples.

Results

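Rat hepatocytes in culture were kept for 48 h with WY-14643 at 8 µM or 200 µM, and the 5 wells of the higher dose were compared with the 5 wells of the lower dose. The comparison uses 10 of the 30 arrays of the study, taken by their labelled time and dose and by no measured value. The other 20 arrays hold vehicle wells at 24 h and 48 h and both doses at 24 h, and they enter only where they are named. Both dose groups are frozen hepatocytes bought from a supplier, from male Sprague Dawley rats, plated on collagen under a Matrigel overlay and dosed on the third day of culture. No gene was altered in either group. Vehicle wells are labelled 1% DMSO, and the dosing solutions are described as concentrates made up in 1% DMSO, so how much solvent the treated wells held cannot be said. Each array read the RNA of 1 well. The labels call the wells biological replicates and do not say whether their cells came from different animals, so each error and p below measures the spread between wells.

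WY-14643, or pirinixic acid, is a synthetic agonist of PPARα, a nuclear receptor that pairs with RXR and switches on genes of fatty acid uptake, peroxisomal and mitochondrial β-oxidation, microsomal ω-hydroxylation and ketone body production. In rodent liver its agonists make peroxisomes multiply and lower many plasma protein and inflammatory genes. The comparison of doses shows which transcripts differ between a well given the lower amount of agonist and a well given the higher one, in cells that both carry the agonist.

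The trimmed mean, which leaves out the highest and lowest signals, was 1500.62 to 1500.67 on the 10 arrays, so scaling had set their overall signal. The median was alike as well. The median signal of a probe set, in the arbitrary units of the scanner after scaling, lay between 384.7 and 433.7, and 57.9% to 60.9% of probe sets were above the filter on low signal. Across genes, the median correlation of an array with the others of its dose was 0.977 to 0.980 and with those of the other dose 0.974 to 0.977. The first principal component held 18.3% of the variance and placed the 8 µM wells between -16.4 and -6.4 and the 200 µM wells between 5.4 and 18.5. The cells carried hepatocyte transcripts at high signal at both doses, and the summed signal of 11 hepatocyte markers was 442638 to 502826 at 8 µM and 438923 to 491258 at 200 µM. In 48 h vehicle wells the sum was 591598 to 671596, with 450837 in replicate 4. Of the 11 markers 4 (36.4%) were higher at 200 µM and 1 (9.09%) lower by limma at an adjusted p under 0.05, against 3.17% and 3.8% of all genes. The ratio of 3′ to 5′ signal, which can reflect RNA length and labelling, was 3.26 ± 0.417 (SD, n = 5) at 8 µM and 3.1 ± 0.201 at 200 µM for β-actin (two-sided exact permutation p = 0.5, adjusted over 3 ratios 0.75) and 1.15 at both doses for GAPDH (exact p = 0.83). For the hexokinase control it was 0.224 ± 0.0743 at 8 µM and 0.132 ± 0.0261 at 200 µM (exact p = 0.032, adjusted 0.095), and its part in the results was not tested. Replicate 4 of the 48 h vehicle group stood apart, with a median signal of 765.5 and 73.85% of probe sets above the filter. It has no place in the comparison of doses, and every vehicle level below is given with that array named beside the other 4.

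At 48 h fewer genes differed between the doses than between either dose and vehicle, and most differences were small. Of 11545 genes, 366 (3.17%) were higher at 200 µM than at 8 µM and 439 (3.8%) were lower, at an adjusted p under 0.05. Differences are given throughout as log2 differences of signal + 16, 200 µM minus 8 µM, and a positive value means a higher signal at 200 µM. The median size of the 805 differences (6.97% of genes) was 0.33, against 0.12 over all genes, and the median standard error was 0.104. Differences of at least 1.5-fold were reached by 59 (0.511%) of the genes that were higher and 68 (0.589%) of those that were lower, and differences of at least 2-fold by 14 and 17. The 5 wells of 1 dose lay wholly above the 5 of the other for 284 (2.46%) of the higher genes and 363 (3.14%) of the lower ones. Whether called or not, the doses did not overlap for 437 genes higher (3.79%) and 488 lower (4.23%). For scale, 8 µM against vehicle at 48 h gave 1648 genes higher and 1798 lower, and 200 µM against vehicle gave 1666 and 1612. These 2 comparisons share the vehicle wells with each other and the treated wells with the comparison of doses. Without the vehicle array that stands apart the comparisons with vehicle gave 1932 and 2299, and 1962 and 2143. The number of higher genes was 227 without replicate 3 of the 200 µM wells and 240 without replicate 4. A fit of all 15 arrays of 48 h gave 108 higher and 155 lower, and the same fit without the vehicle array that stands apart, chosen after seeing the data, 425 and 458.

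**Figure D1:**
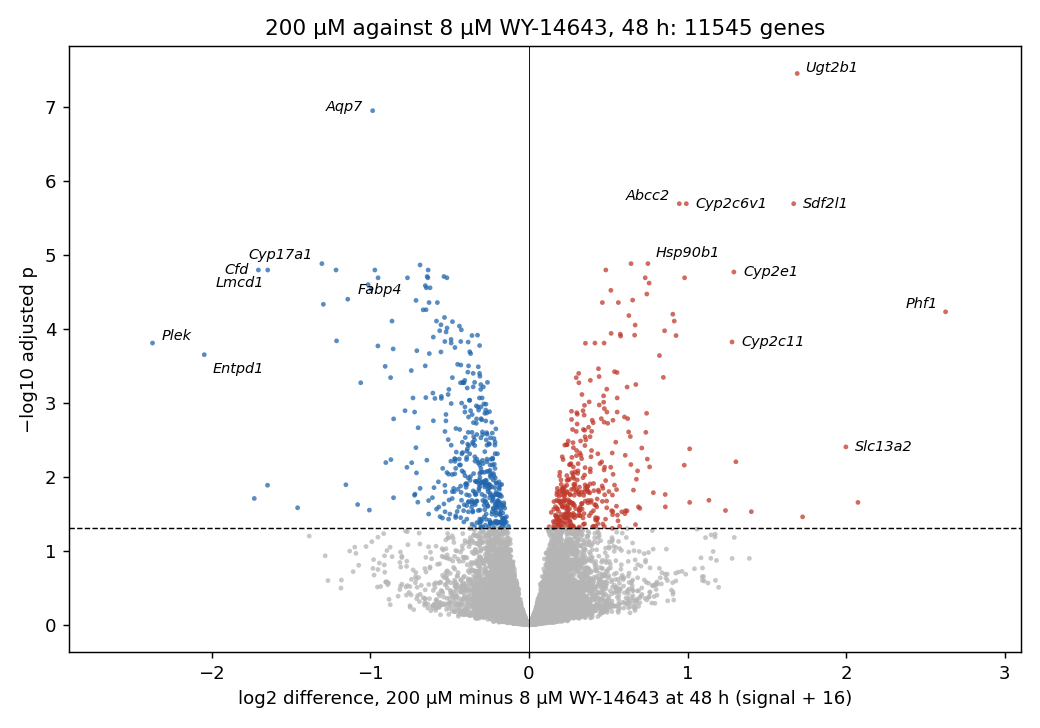
Log2 difference of each of 11545 genes between 200 µM and 8 µM WY-14643 at 48 h (horizontal axis, positive where 200 µM is higher) against −log10 of the limma p adjusted by Benjamini-Hochberg (vertical axis). Red points are the 366 genes higher and blue points the 439 genes lower at an adjusted p under 0.05, marked by the dashed line, and most of both lie within 1 log2 unit of 0.

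Among the genes that were higher at 200 µM and whose wells did not overlap, those with the largest differences were Phf1 (2.63), Slc13a2 (2.00), Ugt2b1 (1.69), Sdf2l1 (1.67), Gmds (1.40), Calml4 (1.31), Cyp2e1 (1.29), Cyp2c11 (1.28), Mapt (1.14) and Crp (1.01). Phf1 encodes a partner of the Polycomb repressive complex, Slc13a2 a sodium-coupled dicarboxylate carrier, Ugt2b1 a glucuronosyltransferase, Cyp2e1 and Cyp2c11 liver cytochromes P450, and Crp the C-reactive protein. Among those that were lower were Plek (-2.37), Entpd1 (-2.05), Cfd (-1.71), Veph1 (-1.65), Lmcd1 (-1.65), C1qb (-1.46), Cyp17a1 (-1.31), Prss23 (-1.30), Lamb3 (-1.22) and Faxdc2 (-1.21). Plek encodes pleckstrin of blood cells, Entpd1 an ectonucleotidase, Cfd complement factor D, Cyp17a1 a steroid hydroxylase, Prss23 a secreted serine protease and Lamb3 a laminin chain. Several of these transcripts were dim at 1 dose. Phf1 read 60.1, 52.6, 64.5, 104 and 84.5 in the 5 wells at 8 µM and 567, 328, 668, 733 and 428 in the 5 at 200 µM. The 8 µM wells of Phf1 were all under the filter level of 281.4 and the 200 µM wells all above it. Plek ran the other way, with 451, 414, 336, 387 and 422 at 8 µM and 42.5, 83.4, 81, 42.8 and 84.4 at 200 µM. For such dim genes the size of the difference rests on the constant added before the log, and with 1 and 64 in place of 16 it was 2.86 and 2.12 for Phf1, -2.63 and -1.84 for Plek, 2.21 and 1.57 for Slc13a2 and -1.64 and -1.10 for C1qb. Vehicle wells of Phf1 read from 98.6 to 799.6, with 106 on the array that stands apart, a range that takes in both doses in part. Vehicle wells of Plek read from 42.9 to 196, with 719 on the array that stands apart. The other 4 vehicle wells all lay below the 8 µM wells, and 1.95 was the difference of 8 µM from them (adjusted p = 0.00055). Some calls depended on which wells were included. That of C1qb was lost without replicate 1, 2, 3 or 5 of 8 µM or replicate 3 of 200 µM (adjusted p up to 0.074), that of Gmds without replicate 1 or 3 of 8 µM or replicate 3, 4 or 5 of 200 µM (adjusted p up to 0.098) and that of Mapt without replicate 1 or 3 of 200 µM (adjusted p up to 0.063).

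A group of chaperones of the endoplasmic reticulum (ER) was higher at 200 µM. They fold the proteins a hepatocyte secretes, and the unfolded protein response raises them through the factors ATF6 and XBP1 when folding lags behind. Of 24 measured genes of this list, 10 were higher and 0 lower, against 3.17% and 3.8% of all genes, and the median difference of the list was 0.16, against 0.01 over all genes. The 10 were Sdf2l1 (1.67), Creld2 (0.93), Hsp90b1 (0.75), Calr (0.74), Pdia3 (0.65), Dnajc3 (0.64), Dnajb11 (0.47), Pdia6 (0.46), Pdia4 (0.22) and Canx (0.18). The promoters of 7 of the 19 members with a promoter window in RefSeq hold the ER stress response element, CCAAT and CCACG with 9 bases of any kind between them, on either strand, and 5 of these 7 genes were among the 10. The same letters stand in 22 of all 33469 promoter windows of 300 bases (0.0657%), each running from 250 bases before a gene start to 50 after it. The rest of the 10, Sdf2l1, Pdia3, Dnajb11, Pdia6 and Pdia4, are not among those 7, for want of a match or of a window. Whether the element goes with the difference between doses was not tested. Another form of the element, ATTGG and CCACG with 1 base between them, which has CCACG in common with the first, stood in 17 windows (0.0508%), among them those of Dnajb11, Hyou1 and Herpud1. The 250 bases before the start of 4 genes that were higher and of Hspa5, which passed no test, are shown because they let the element be seen beside the signals that follow, with CCAAT and CCACG, or ATTGG and CGTGG where the match is on the other strand, in capitals. Sequences are from RefSeq on GRCr8, 5′ to 3′ on the strand of the gene.
Hsp90b1, chr7:23012294-23012543, minus strand: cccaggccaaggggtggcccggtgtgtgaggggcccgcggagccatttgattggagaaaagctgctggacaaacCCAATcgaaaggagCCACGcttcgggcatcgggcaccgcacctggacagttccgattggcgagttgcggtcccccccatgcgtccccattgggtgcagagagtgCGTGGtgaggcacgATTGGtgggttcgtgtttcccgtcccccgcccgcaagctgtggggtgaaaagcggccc
Calr, chr19:40213117-40213366, plus strand: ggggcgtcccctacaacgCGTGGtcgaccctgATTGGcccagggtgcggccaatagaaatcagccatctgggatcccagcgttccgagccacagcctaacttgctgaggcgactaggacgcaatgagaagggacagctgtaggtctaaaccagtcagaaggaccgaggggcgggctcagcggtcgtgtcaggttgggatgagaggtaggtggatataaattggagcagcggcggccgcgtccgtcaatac
Creld2, chr7:121789134-121789383, plus strand: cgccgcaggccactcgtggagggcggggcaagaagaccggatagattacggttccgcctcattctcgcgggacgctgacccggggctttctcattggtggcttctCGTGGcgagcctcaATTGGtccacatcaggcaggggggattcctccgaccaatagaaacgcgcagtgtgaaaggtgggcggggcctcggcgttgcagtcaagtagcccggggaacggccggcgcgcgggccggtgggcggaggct
Dnajc3, chr15:102432417-102432666, plus strand: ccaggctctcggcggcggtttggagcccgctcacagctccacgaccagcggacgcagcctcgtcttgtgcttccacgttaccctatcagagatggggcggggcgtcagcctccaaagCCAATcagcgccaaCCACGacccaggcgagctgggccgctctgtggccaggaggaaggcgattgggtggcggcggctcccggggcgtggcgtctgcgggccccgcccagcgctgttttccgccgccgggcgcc
Hspa5, chr3:38452766-38453015, plus strand: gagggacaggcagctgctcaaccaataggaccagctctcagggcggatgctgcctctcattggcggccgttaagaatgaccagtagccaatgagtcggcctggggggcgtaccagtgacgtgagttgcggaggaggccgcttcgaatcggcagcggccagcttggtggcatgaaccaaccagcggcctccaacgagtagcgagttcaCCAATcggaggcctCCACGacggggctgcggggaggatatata
Hsp90b1 holds 2 matches, which begin 176 and 72 bases before the start. The match begins 232 bases before the start of Calr, 145 before Creld2, 133 before Dnajc3 and 43 before Hspa5. A match is a run of letters and not a measured binding site. Canx and Xbp1 hold the same letters, and their differences were 0.18 and -0.14 (adjusted p = 0.085).

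The chaperone signals were read well by well. Sdf2l1, whose product joins the chaperone complexes of the ER lumen, read 1886, 2096, 1896, 2260.3 and 1984 at 8 µM and 5829, 5279.5, 5663, 7009.8 and 9207 at 200 µM. Its lowest 200 µM well was above its highest 8 µM well, and the difference was 1.67 ± 0.12 (SE, adjusted p = 2e-06). Hsp90b1, the ER member of the HSP90 family, read 12180.0, 14107, 14433, 12549.9 and 15210.1 at 8 µM and 21476, 22414, 21839.8, 24776 and 24544 at 200 µM, a difference of 0.75 ± 0.06 (SE, adjusted p = 1.3e-05). Calr, the lectin chaperone calreticulin, read 7848, 9150.0, 8049.9, 7673 and 8834 at 8 µM and 13927, 12689, 12825, 13408 and 17012 at 200 µM, a difference of 0.74 ± 0.08 (SE, adjusted p = 3.4e-05). In both genes the doses did not overlap. Pdia3, a disulfide isomerase that works with calreticulin, read 16552, 17763, 17553, 16904 and 17422 at 8 µM and 28776, 24247, 24044, 27119 and 32279 at 200 µM, a difference of 0.65 ± 0.07 (SE, adjusted p = 4.1e-05). Its second kept probe set gave 0.27 ± 0.13 (adjusted p = 0.3 over all probe sets). Dnajc3, a cochaperone of the ER lumen, read 13599, 14325, 14926, 12872 and 12497 at 8 µM and 21082, 21069.8, 19751, 22003 and 22630.4 at 200 µM, a difference of 0.64 ± 0.05 (SE, adjusted p = 1.3e-05). Creld2, an ER protein that the unfolded protein response raises, read 1853, 1962, 1821, 1599 and 1522 at 8 µM and 3306, 3013, 2612, 3956 and 3987 at 200 µM, a difference of 0.93 ± 0.11 (SE, adjusted p = 0.00012). Hspa5, or BiP, the main HSP70 chaperone of the ER, did not follow them. It read 39757, 43374, 39304, 41000.0 and 40615 at 8 µM and 45160.2, 43039, 39774, 45435 and 42136 at 200 µM, and the doses overlapped, with a difference of 0.08 (95% interval -0.02 to 0.17). Other members that passed no test were Xbp1 (-0.14), Dnajb9 (0.03), Herpud1 (0.15), Manf (0.00), Edem1 (-0.08) and P4hb (-0.06).

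Set beside vehicle, the chaperones did not all lie the same way. Hsp90b1 in vehicle wells read from 25713 to 27966, with 17988 on the array that stands apart, and the 200 µM wells lay between the 8 µM wells and the 4 other vehicle wells. Creld2 in vehicle wells read from 3814 to 4261, with 3443 on the array that stands apart, above all 8 µM wells. Sdf2l1 in vehicle wells read from 2605 to 3067, with 2711 on the array that stands apart, between the doses. Dnajc3 in vehicle wells read from 12631 to 13472, with 10439.5 on the array that stands apart, below the 200 µM wells. As fitted differences from vehicle without the array that stands apart, Hsp90b1 was -0.97 at 8 µM and -0.22 at 200 µM, Sdf2l1 -0.48 and 1.19, Calr -0.52 and 0.23, and Hspa5 -0.04 and 0.04.

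**Figure D2:**
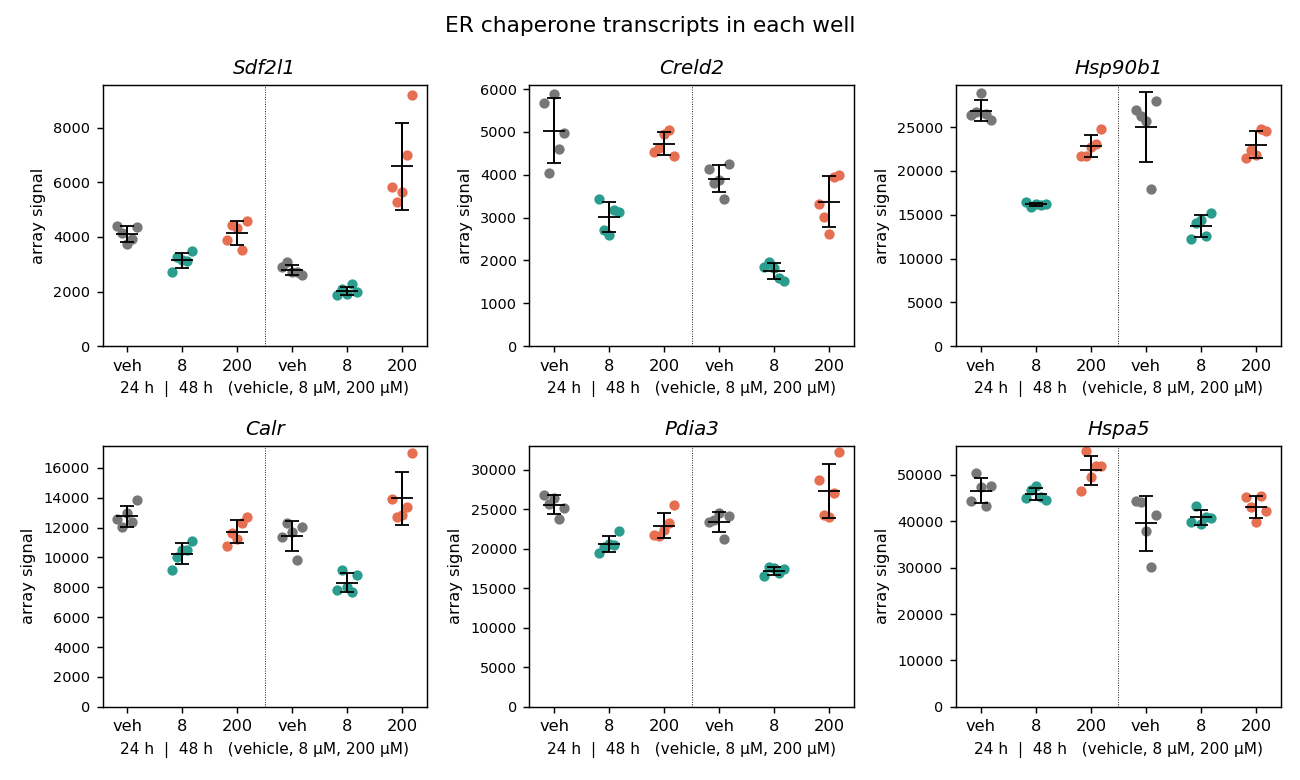
Array signal (vertical axis, linear, from 0) of 6 ER chaperone transcripts in each well, in vehicle, 8 µM and 200 µM at 24 h (left of each dotted line) and 48 h (right). Points are wells, long bars the mean and short bars the SD of n = 5, and at 48 h the 200 µM wells lie wholly above the 8 µM wells in each panel except that of Hspa5.

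Genes of the integrated stress response, in which ATF4 raises amino acid synthesis and transport, were higher in part. Of 33 measured, 6 were higher and 1 lower, against 3.17% and 3.8% of all genes, with a list median of 0.21 and 29 differences above 0. Higher were Atf5, a transcription factor of this response, Slc3a2 (0.52), a subunit of amino acid exchangers, Phgdh (0.47) and Psph (0.28) of serine synthesis, Chac1 (0.37) and Nupr1 (0.36). Atf5 read 7745, 6440.3, 7609, 5649.6 and 5944 at 8 µM and 11048, 10827, 9993, 10173 and 10604 at 200 µM, with no overlap and a difference of 0.67 ± 0.08 (SE, adjusted p = 0.00012). Shmt2, the mitochondrial serine hydroxymethyltransferase, was lower (-0.30, adjusted p = 0.00066). At 24 h, in other wells, 17 of the same genes were higher at 200 µM and 1 lower, and the list median was 0.29. The test of the change between times called none of these genes.

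The proteasome, the protease that clears ubiquitinated proteins, had 9 of 36 measured subunits higher and 0 lower, against 3.17% and 3.8% of all genes, with a list median of 0.13 and 33 differences above 0. The sizes were small apart from the immunoproteasome subunits Psmb10 (0.74) and Psmb8 (0.39). Psmb10 read 1129, 1233, 1525, 1377 and 1201 at 8 µM and 1636, 2078, 2738, 2194 and 2306 at 200 µM, and the doses did not overlap (adjusted p = 0.0014). Psmd11, a lid subunit, differed by 0.31 ± 0.04 (SE, adjusted p = 0.0004). The count for this list ran from 4 in the fit with all 15 arrays of 48 h to 20 after quantile normalization. Of 18 cytosolic and mitochondrial heat shock proteins 1 was higher, Hsph1 (0.29), and that call was lost on the mean of its probe sets (adjusted p = 0.63).

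The transcripts by which PPARα activation is followed were above vehicle at both doses, and 14 of 19 passed no test between them. Without the vehicle array that stands apart, all 19 were called above vehicle, by 0.62 (Plin2) to 7.27 (Acot1) at 8 µM and by 0.48 (Plin2) to 7.30 (Acot1) at 200 µM. Acot1, a cytosolic acyl-CoA thioesterase, read 52168, 54172, 51342, 52101 and 54959 at 8 µM and 53491, 56746, 54512, 54643 and 51385 at 200 µM, and vehicle wells from 127 to 1624, with 54.2 on the array that stands apart. The difference was 0.03 (95% interval -0.05 to 0.11). Cyp4a1, the fatty acid ω-hydroxylase, read 78996, 80377, 74137, 68328 and 74729.6 at 8 µM and 74863, 75317, 74372, 74926 and 66144 at 200 µM, with a difference of -0.04 (95% interval -0.15 to 0.07). Cpt1a, the liver carnitine palmitoyltransferase, read 8364, 10313, 9792, 9422 and 13362 at 8 µM and 11159.5, 10478, 10765, 10441 and 12784 at 200 µM, with a difference of 0.13 (95% interval -0.08 to 0.34). In all 3 genes the wells of the doses overlapped. Pdk4, which restrains pyruvate oxidation, differed by 0.06 (95% interval -0.03 to 0.15), and Angptl4, an inhibitor of lipoprotein lipase, by -0.07 (95% interval -0.15 to 0.02). Acsl1, which activates fatty acids, differed by -0.12 (95% interval -0.23 to -0.01), and Pex11a, which divides peroxisomes, by 0.11 (95% interval 0.01 to 0.21). Cyp4a3 differed by 0.03 (95% interval -0.05 to 0.11), the fatty acid receptor Cd36 by -0.00 (95% interval -0.22 to 0.22) and the droplet coat protein Plin2 by -0.14 (95% interval -0.27 to -0.01). Hadha, a subunit of the mitochondrial trifunctional protein, differed by -0.15 (95% interval -0.26 to -0.04), Acadm by -0.11 (95% interval -0.23 to 0.02) and the carnitine acetyltransferase Crat by -0.13 (95% interval -0.27 to 0.01). The widest interval was that of Ucp2, a mitochondrial carrier, at 0.45 (95% interval 0.15 to 0.76). These intervals are for single genes, not adjusted for the number tested, and they bound the difference without showing that the doses act alike.

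Of the 19 members, 4 were lower at 200 µM and 1 higher, against 3.8% and 3.17% of all genes, with a median of -0.07. Fabp1, the fatty acid binding protein of liver, read 78706, 87585, 80023, 74845 and 83609 at 8 µM and 66801, 63065, 60704, 56339 and 63950.4 at 200 µM. The doses did not overlap, and the difference was -0.38 ± 0.05 (SE, adjusted p = 0.00032). Fabp3, a related protein of muscle, differed by -0.43 ± 0.06 (SE, adjusted p = 0.00031), and its call was lost in the fits of 15 and 30 arrays (adjusted p = 0.58 and 0.49) and in both without the vehicle array that stands apart (0.37 and 0.40). Ehhadh, a bifunctional enzyme that oxidises fatty acids in peroxisomes, read 41150.0, 48764, 47684, 46131 and 58724 at 8 µM and 36574, 33737, 34973, 33224 and 43414 at 200 µM, and its highest 200 µM well lay above its lowest 8 µM well. Its difference was -0.41 ± 0.09 (SE, adjusted p = 0.0087). The call was lost after quantile normalization (adjusted p = 0.062), in the fits of 15 and 30 arrays (0.5 and 0.2) and with no variance trend (0.059). Cpt1b, the muscle carnitine palmitoyltransferase, read 13722, 13695, 12922, 12732 and 15817 at 8 µM and 11634, 9343, 11983, 8706 and 11127 at 200 µM, a difference of -0.39 ± 0.09 (SE, adjusted p = 0.013). Its call was lost in the fits of 15 and 30 arrays (adjusted p = 0.22 and 0.075) and with no variance trend (0.066). Vnn1, a pantetheinase, was the member that was higher (0.23, adjusted p = 0.017), and it lost its call in the same 3 fits (0.31, 0.18 and 0.082). Vehicle wells of Fabp1 read from 6872 to 8131, with 5295 on the array that stands apart. Vehicle wells of Ehhadh read from 1014 to 1665, with 454 on the array that stands apart. In both genes every 200 µM well was above every vehicle well.

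**Figure D3:**
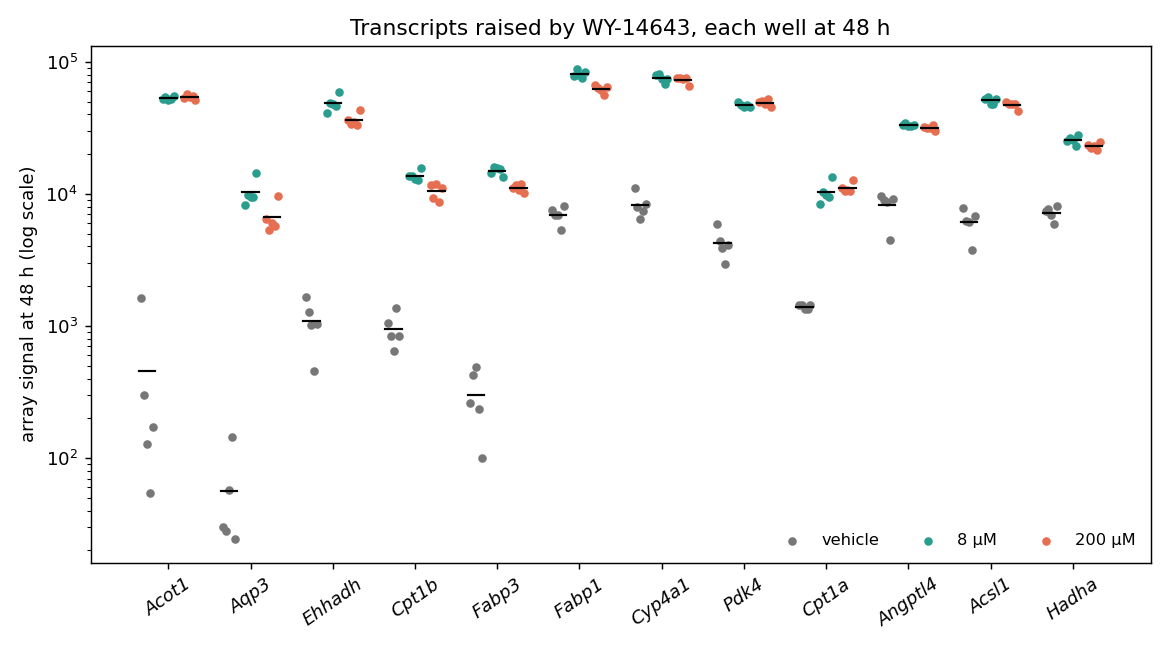
Array signal (vertical axis, log scale) of 12 transcripts that WY-14643 raised, in each well at 48 h, in vehicle (grey), 8 µM (green) and 200 µM (orange), with a bar at the mean of n = 5. The dose groups overlap for Acot1, Cyp4a1, Pdk4 and Cpt1a and do not overlap for Fabp1, Fabp3 and Cpt1b, and all treated wells lie above the vehicle wells.

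Enzymes of fat breakdown were lower at 200 µM in part and by small amounts. In mitochondrial β-oxidation and the carnitine shuttle 10 of 21 genes were lower and 0 higher, against 3.8% and 3.17% of all genes (which also stand for the other lists of fat breakdown), with a median of -0.14 and 20 differences below 0. They were the acyl-CoA dehydrogenases Acads (-0.44), Acadvl (-0.23), Acadl (-0.16) and Acad11 (-0.18), the transferase Cpt1b (-0.39), the hydroxyacyl-CoA dehydrogenase Hadh (-0.22), the isomerase Eci2 (-0.19), the electron transfer proteins Etfdh (-0.22) and Etfb (-0.19) and the carnitine carrier Slc25a20 (-0.14). Hadh lost its call on the mean of its probe sets. In peroxisomal β-oxidation 4 of 14 were lower and 0 higher, among them Decr2 (-0.39), Hsd17b4 (-0.37) and Scp2 (-0.28), with a median of -0.12. In the list of peroxisome assembly and membrane 3 of 17 were lower, the membrane protein Pxmp4 (-0.33), the assembly factor Pex19 (-0.32) and the enzyme Mlycd (-0.22). These 3 lost their calls in the fit of all 15 arrays of 48 h (adjusted p = 0.18, 0.052 and 0.071). Mlycd also lost it with no variance trend (0.053). Scp2 lost its call in the fits of 15 and 30 arrays (0.23 and 0.063) and with no variance trend (0.06). Of the thioesterases 1 of 9 was lower, the peroxisomal Acot8 (-0.64). The number of lower mitochondrial genes was 6 without replicate 2 of the 8 µM wells and without replicate 3 or 4 of the 200 µM wells, and 1 in the fit of all 15 arrays of 48 h. The DR1 element, AGGTCA 2 times with 1 base between, searched on both strands as an exact form of the PPARα site, was in 18 of the promoter windows (0.0538%) and in none of the 17 and 13 windows of these β-oxidation lists. At so low a share, none in lists this short cannot show that the sites are absent. Looser forms and sites outside the windows were not searched.

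A larger difference was found for Bdh1 among the genes of ketone bodies. This enzyme, which reduces acetoacetate to 3-hydroxybutyrate, read 3072, 3378, 3410.0, 3009.7 and 4075 at 8 µM and 1967, 1836, 1632, 1776 and 1499 at 200 µM. The doses did not overlap, and the difference was -0.95 ± 0.09 (SE, adjusted p = 2e-05), with -1.01 ± 0.12 on a second probe set. In vehicle wells Bdh1 read from 1632 to 2071, with 589.8 on the array that stands apart, close to the 200 µM wells. Among 12 genes of ketogenesis and fasting 3 were lower, with Acat1 (-0.25) and Creb3l3 (-0.21), and 2 higher, Vnn1 (0.23) and Igfbp1 (0.31). Of 20 genes that take up, bind or activate fatty acids 7 were lower and 2 higher, against 3.8% and 3.17% of all genes. The lower ones were the binding proteins Fabp4 (-1.14), Fabp3 (-0.43) and Fabp1 (-0.38) and the acyl-CoA synthetases Acsm3 (-0.69), Acss2 (-0.52), Acsl5 (-0.42) and Acsm1 (-0.29), and the higher ones were the synthetases Acsm5 (0.40) and Acsl4 (0.39).

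Sterol synthesis was lower at 200 µM in most of its enzymes. Hepatocytes make cholesterol from acetyl-CoA through mevalonate, squalene and lanosterol, under control of SREBP2. Of 20 measured genes of the pathway and its regulators, 15 were lower and 0 higher, against 3.8% and 3.17% of all genes, and the list median was -0.29. In each of these 15 the 200 µM wells lay wholly below the 8 µM wells. Lss, which closes squalene epoxide to lanosterol, read 4094, 4108, 3863, 4228 and 4100.1 at 8 µM and 2843, 2593, 2448, 2719 and 2508 at 200 µM, a difference of -0.64 ± 0.06 (SE, adjusted p = 1.6e-05). Hsd17b7, a ketoreductase of the later steps, read 8969, 10095, 8351, 10443 and 10363 at 8 µM and 6231, 6088, 5661, 6317 and 6380.3 at 200 µM, a difference of -0.65 ± 0.07 (SE, adjusted p = 2.8e-05), with -0.80 ± 0.06 on a second probe set. Mvd, the mevalonate decarboxylase, read 2962, 2263, 2672, 2880.1 and 2451 at 8 µM and 1853, 1689, 1643, 1967 and 1506 at 200 µM, a difference of -0.61 ± 0.09 (SE, adjusted p = 0.00074). The other enzymes ran from -0.55 (Msmo1) to -0.20 (Pmvk), with Fdft1, the squalene synthase, at -0.52, Sqle at -0.47, Cyp51 at -0.39 and Dhcr7 at -0.38. The regulators passed no test: Srebf2, which encodes SREBP2, differed by -0.16 (adjusted p = 0.33), Insig1 by -0.20 (0.15) and Insig2 by 0.03 (0.88).

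Against vehicle without the array that stands apart, 13 of these 15 genes were higher at 8 µM, and at 200 µM 2 were higher, 2 lower and 11 passed no test. The 200 µM differences from vehicle ran from -0.57 (Sqle) to 0.35 (Hsd17b7). Lss in vehicle wells read from 2396 to 3043, with 2312 on the array that stands apart. Mvd in vehicle wells read from 1792 to 2225, with 1276 on the array that stands apart. For both enzymes every vehicle well was below every 8 µM well. As fitted differences from vehicle, Lss was 0.56 at 8 µM and -0.07 at 200 µM, Hsd17b7 1.00 and 0.35, and Fdft1 0.43 and -0.09.

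Fatty acid and triglyceride synthesis had 9 of 22 genes lower and 0 higher, against 3.8% and 3.17% of all genes, with a median of -0.18. They included the malic enzyme Me1 (-0.42), the acyltransferases Dgat1 (-0.42) and Agpat2 (-0.36), the fatty acid synthase Fasn (-0.30), the ATP citrate lyase Acly (-0.30) and the desaturases Fads1 (-0.53) and Scd (-0.23), of which Scd lost its call after quantile normalization. Of 20 genes of lipid droplets and lipolysis 5 were lower and 0 higher. These were the lipase activator Abhd5 (-0.63), the monoglyceride lipase Mgll (-0.60), Lpl (-0.72), Cidea (-0.18) and Lipa (-0.18), and the call of Cidea was lost without replicate 1, 2 or 3 of 8 µM or replicate 2, 3 or 5 of 200 µM (adjusted p up to 0.078). The microsomal transfer protein Mttp (-0.48) of lipoprotein assembly was lower too. Glycerol channels went both ways. Aqp7, the glycerol channel of fat tissue, read 19338, 21784, 20345, 21911 and 23684 at 8 µM and 11175, 10546, 10122, 11001 and 11089.7 at 200 µM, with no overlap and a difference of -0.99 ± 0.05 (SE, adjusted p = 1.1e-07). Aqp3 read 8223, 9816, 9410.3, 9469 and 14341 at 8 µM and 6472, 5311, 6043, 5722 and 9639 at 200 µM, with 1 well of 200 µM inside the range of 8 µM and a difference of -0.63 ± 0.15 (SE, adjusted p = 0.021). Vehicle wells of Aqp7 read from 2374 to 2954, with 3403 on the array that stands apart, and those of Aqp3 from 24.4 to 56.9, with 144 on the array that stands apart. In both genes vehicle lay below both doses. Aqp9, the glycerol channel of hepatocytes, was higher at 200 µM (0.86, adjusted p = 0.00011). Glycerol kinase Gk (-0.31) was lower, and the carboxykinases Pck1 (0.61) and Pck2 (0.75) were higher.

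Of 26 xenobiotic cytochromes P450 and their receptors 6 were higher and 1 lower, against 3.17% and 3.8% of all genes, with a median of 0.18. Cyp2c11, the male-specific steroid hydroxylase of rat liver, read 1409.8, 1924, 2039.5, 2058 and 2495 at 8 µM and 3950.0, 3613, 4714, 5607 and 6541 at 200 µM. All 200 µM wells lay above all 8 µM wells, and the difference was 1.28 ± 0.16 (SE, adjusted p = 0.00015). Vehicle wells of Cyp2c11 read from 14201 to 20228, with 10320.3 on the array that stands apart, above both doses. Cyp2e1, which oxidises ethanol and acetone, read 6394, 8504, 8207, 7842 and 11359.5 at 8 µM and 19071, 18173, 19803, 20422 and 25164 at 200 µM, a difference of 1.29 ± 0.12 (SE, adjusted p = 1.7e-05). Vehicle wells of Cyp2e1 read from 5307 to 7211, with 4151 on the array that stands apart, below all 200 µM wells. Cyp2c6v1 read 8828, 9087, 8919, 7154 and 9383 at 8 µM and 16838, 16229, 17238, 16467 and 19394 at 200 µM, a difference of 0.99 ± 0.07 (SE, adjusted p = 2e-06). Cyp2d3 was lower (-0.65, adjusted p = 0.00085). Members of the Cyp2c and Ugt2b families are close in sequence, and a probe set of 1 gene may read another, so their values are uncertain as to the gene.

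Conjugation enzymes went both ways, and the called genes of bile acids were all higher. Ugt2b1, which joins glucuronic acid to steroids and drugs, read 5380.1, 5571, 5220.0, 6327 and 6559.5 at 8 µM and 17019.9, 16752, 18257, 20066 and 22089 at 200 µM. The doses did not overlap, and the difference of 1.69 ± 0.08 (SE, adjusted p = 3.5e-08) had the smallest adjusted p of the comparison. Vehicle wells of Ugt2b1 read from 31354 to 39675, with 19985 on the array that stands apart, and those other 4 lay above all 200 µM wells. Of 27 conjugation enzymes 4 were higher, with Ugt2b35 (0.73) and Gstt3 (0.71), and 3 lower, against 3.17% and 3.8% of all genes, with Sult1c3 (-0.72) and Mgst3 (-0.22). Of 19 genes that make or move bile acids 5 were higher and 0 lower, with a median of 0.16. Differences in this list ran from -0.91, which passed no test, to 0.95, and 5 of the 19 were below 0. Abcc2, the canalicular pump of conjugated anions, read 7694, 7512, 8445, 8477 and 6737 at 8 µM and 14994, 13902, 14944, 16907 and 14231 at 200 µM, with no overlap and a difference of 0.95 ± 0.07 (SE, adjusted p = 2e-06). Vehicle wells of Abcc2 read from 22955 to 28214, with 18829 on the array that stands apart, above both doses. The other genes of this list that were higher were the phospholipid exporter Abcb4 (0.67), the bile acid pump Abcb11 (0.23) and the synthetic enzymes Akr1d1 (0.47) and Cyp27a1 (0.33).

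Amino acid metabolism had 9 of 43 genes higher and 6 lower, against 3.17% and 3.8% of all genes, with a median of 0.04. Cth, which makes cysteine from cystathionine, read 4681, 5778, 5921, 5678 and 6896 at 8 µM and 10359.7, 10584, 12115, 10510.3 and 13572 at 200 µM, a difference of 0.98 ± 0.09 (SE, adjusted p = 2e-05). Mat1a, which makes the methyl donor S-adenosylmethionine in liver, read 3591, 3186, 3636, 3987 and 4515 at 8 µM and 6631, 6331, 7259, 6452 and 9213 at 200 µM, a difference of 0.92 ± 0.10 (SE, adjusted p = 7.8e-05). In neither gene did the doses overlap. Also higher were the proline oxidase Prodh (0.74), the tyrosine aminotransferase Tat (0.60) and the urea cycle enzyme Ass1 (0.30). Lower were the taurine enzyme Csad (-0.62), the alanine aminotransferase Gpt (-0.55), the histidine enzyme Uroc1 (-0.64) and the aspartate carrier Slc25a13 (-0.36).

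Plasma proteins of the acute phase had 7 of 25 genes higher and 1 lower, against 3.17% and 3.8% of all genes, with a median of -0.02. Crp read 2864, 4066, 4463, 5213 and 6035 at 8 µM and 7764, 6323, 9062, 9416 and 13214 at 200 µM, with no overlap and a difference of 1.01 ± 0.19 (SE, adjusted p = 0.0042). Fgb, the fibrinogen β chain, read 30274, 35542, 36214, 30138 and 30939 at 8 µM and 47404, 47808, 53041, 47088 and 45344 at 200 µM, a difference of 0.56 ± 0.06 (SE, adjusted p = 4.4e-05), but a second, dimmer probe set gave 0.04 ± 0.22 and the call was lost on the mean of both. Vehicle wells of Crp read from 11838 to 14131, with 8386 on the array that stands apart, and those of Fgb from 69688 to 84374, with 56986 on the array that stands apart. Fga (0.38), Lbp (0.30), Itih4 (0.30), Cp (0.37) and Ahsg (0.21) were higher and Ambp (-0.17) lower. Of 32 complement and coagulation genes 5 were lower, with Cfd (-1.71), Plg (-0.64) and F10 (-0.28), and 2 higher, with Pros1 (0.35). Cfd read 1682, 1637, 1386, 1154 and 1589.5 at 8 µM and 502, 472, 286, 485 and 505 at 200 µM, with no overlap, and vehicle wells from 301 to 425, with 282 on the array that stands apart. Chemokine transcripts were higher for Cxcl1 (0.98) and Cxcl10 (0.86) and lower for Cxcl12 (-0.54), the last lost on the mean of its probe sets.

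**Figure D4:**
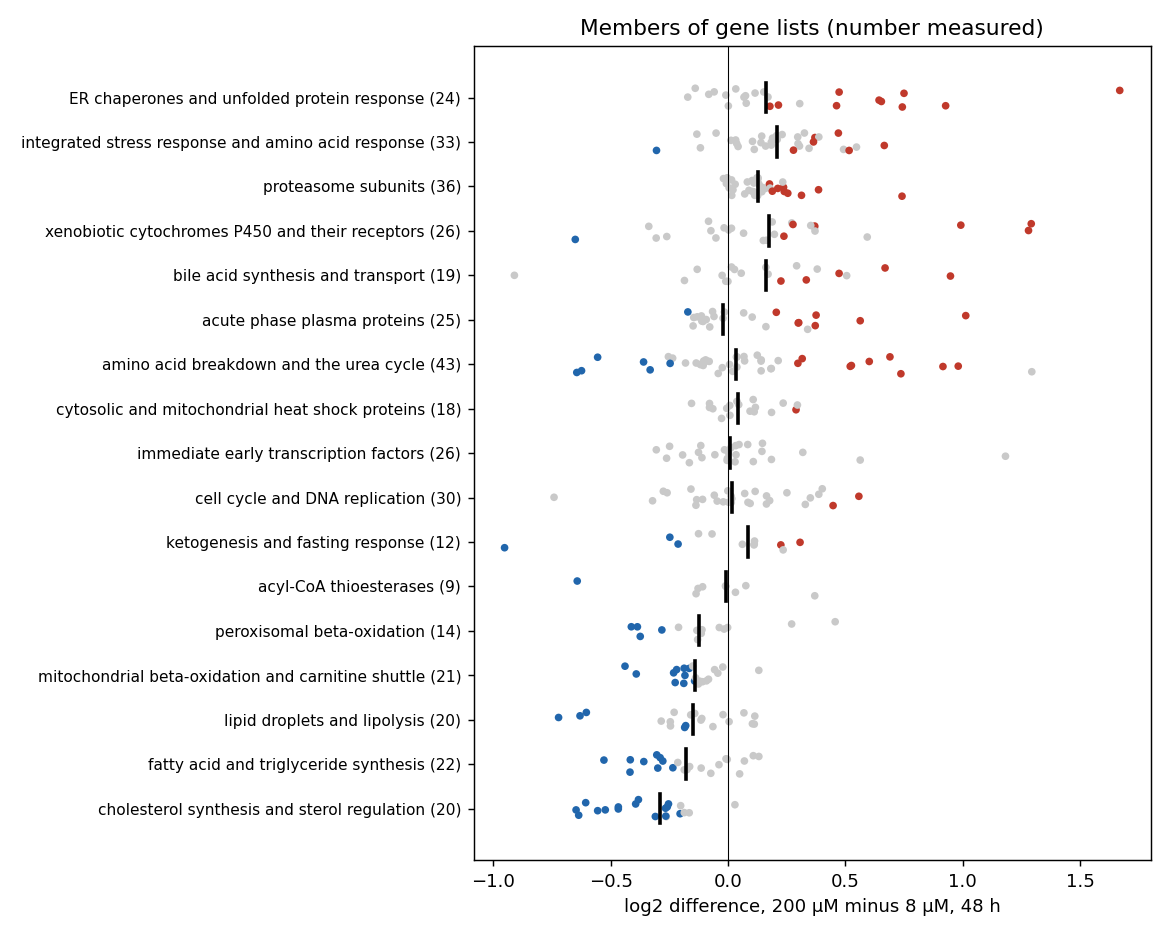
Log2 difference between 200 µM and 8 µM at 48 h (horizontal axis) of each measured member of 17 gene lists, with the number measured in brackets. Points are genes, red where higher and blue where lower at an adjusted p under 0.05 over all genes, grey where not, and black bars are list medians, which run from -0.29 for cholesterol synthesis to 0.21 for the integrated stress response.

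Grouping the genes by their response to 8 µM at 24 h, in 10 wells that the comparison of doses at 48 h does not use, gave the following shares, which are a description with no test. Of 1449 genes raised by 8 µM against vehicle at 24 h, 224 (15.5%) were lower at 200 µM than at 8 µM at 48 h and 49 (3.38%) higher. Of 231 genes raised at least 2-fold, 74 (32%) were lower and 4 (1.73%) higher, and their median difference was -0.14. Of 1849 genes lowered by 8 µM at 24 h, 169 (9.14%) were higher at 200 µM and 68 (3.68%) lower. Of 174 genes lowered at least 2-fold, 34 (19.5%) were higher and 4 (2.3%) lower, with a median of 0.17. Among the 8247 genes without a call at 24 h, 148 (1.79%) were higher and 147 (1.78%) lower. Among the raised genes the calls were mostly lower at 200 µM, and among the lowered genes mostly higher. Aqp7, Prss23, Entpd1 and Cyp17a1 are examples among the raised genes. Entpd1 read 651, 893, 774, 771 and 1222 at 8 µM, 327, 239, 113, 119 and 239 at 200 µM, and in vehicle wells from 13.3 to 25.5, with 84.7 on the array that stands apart. Prss23 read 3631, 5374, 4861, 5804 and 7039 at 8 µM, 2344, 1964, 1993, 1835 and 2517 at 200 µM, and in vehicle wells from 246 to 368, with 655 on the array that stands apart. In both genes the 200 µM wells lay between vehicle and 8 µM with no overlap. Cyp17a1 read 2538, 2999.6, 3108, 3272 and 3591 at 8 µM and 1342, 1213, 1302, 945 and 1447 at 200 µM, a difference of -1.31 ± 0.11 (SE, adjusted p = 1.3e-05). Ugt2b1, Cyp2c11, Abcc2 and Cth are examples among the lowered genes. Lmcd1, a transcriptional cofactor, was not called at 24 h (8 µM minus vehicle -0.02, adjusted p = 0.94). At 48 h it read 2507, 1767, 2058, 2102 and 1465 at 8 µM, 735, 648, 556, 708 and 454 at 200 µM, and in vehicle wells from 2229 to 2592, with 2029.9 on the array that stands apart, and every 200 µM well was below every well of the other groups.

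**Figure D5:**
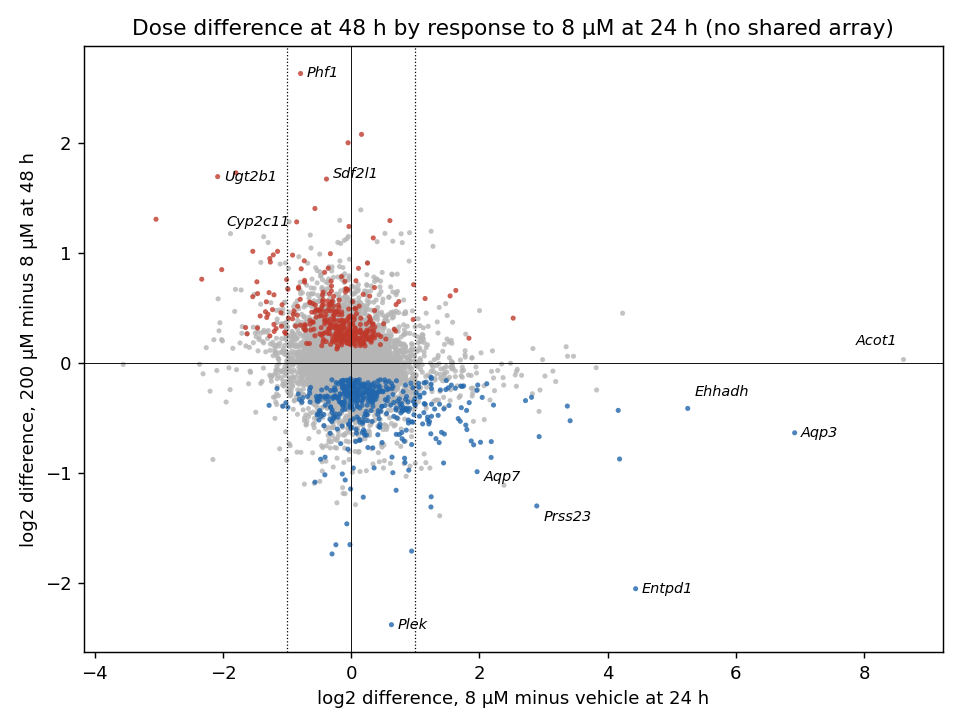
Each of 11545 genes by its log2 difference between 8 µM and vehicle at 24 h (horizontal axis) and between 200 µM and 8 µM at 48 h (vertical axis), from arrays that are not shared. Red and blue points are the genes higher and lower at 200 µM at 48 h, and dotted lines mark a 2-fold response at 24 h; right of the right-hand line 74 genes are blue and 4 red, and left of the left-hand line 34 are red and 4 blue.

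Markers of cells other than hepatocytes were also measured, since thawed hepatocytes can carry some. Of 7 sinusoidal endothelial markers 1 was lower and 0 higher, against 3.8% and 3.17% of all genes, with a median of -0.49. Their summed signal was 3919 to 4733 at 8 µM, 2539 to 3429 at 200 µM and 3578 to 4314 in vehicle wells, with 5970 on the array that stands apart. Fcgr2b, an Fc receptor of these cells, read 1874, 1928, 1571, 1427 and 1343 at 8 µM and 966, 876, 877, 733 and 703 at 200 µM, with no overlap and a difference of -0.95 ± 0.12 (SE, adjusted p = 0.00017). Its mean was 1629 at 8 µM and 831 at 200 µM, beside median sums of 4256 and 3101. Much of the difference in the sum was thus that of Fcgr2b. The other 6 passed no test, with Pecam1 (-0.66), Lyve1 (-0.59), Tek (-0.49), Eng (-0.09), Kdr (0.03) and Stab2 (0.57). Stab1, Vwf and Flt1 were below the filter. Of 12 macrophage markers 1 was lower, Cd68 (-0.60), and none higher, with a median of -0.34 and summed signals of 19174 to 22146 at 8 µM and 20119 to 21893 at 200 µM, which overlapped. The brightest of them, Cd14 (0.18) and Lyz2 (0.18), passed no test, and Adgre1, Itgam and Ptprc were below the filter. C1qb, Plek, Fabp4 and Ctss (-0.53), which macrophages carry, were lower. They are not among these 12 markers and were picked out after their values were seen. The call of C1qb was lost when some single wells were left out, with differences of -1.52 to -1.33 in those fits. Fabp4, the fatty acid binding protein of fat cells, macrophages and capillaries, read 2276, 1536, 1948, 1794 and 1756 at 8 µM and 1013, 910.4, 818, 689.9 and 745 at 200 µM, with no overlap. Of 11 stellate cell and fibroblast markers 1 was lower, Acta2 (-0.47), and of 5 bile duct markers 1, Epcam (-0.18), a call lost without replicate 1 or 2 of 8 µM or replicate 2 or 3 of 200 µM (adjusted p up to 0.063). Fewer cells of a type and less RNA per cell cannot be told apart in whole wells, and the part of these cells in the lists above was not tested.

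The same comparison at 24 h, in 10 other wells, gave 288 genes higher (2.49%) and 359 lower (3.11%). Of the 366 genes higher at 48 h, 126 (34.4%) were also higher at 24 h, which is 43.8% of the 24 h list. Of the 439 lower at 48 h, 212 (48.3%) were also lower at 24 h, which is 59.1% of that list. None was called in opposite directions. The test of the change between times called 12 genes whose difference was more positive at 48 h (0.104%) and 8 whose difference was more negative (0.0693%), and 823 genes (7.13%) at an unadjusted p under 0.05. Of the 12, 5 were ER chaperones of the list above, and their changes were 1.27 ± 0.16 for Sdf2l1 (SE, adjusted p = 0.00037), 0.55 ± 0.10 for Calr (0.013), 0.50 ± 0.09 for Pdia3 (0.0089), 0.42 ± 0.07 for Dnajc3 (0.0038) and 0.42 ± 0.06 for Pdia6 (0.0015). The ER prolyl isomerase Fkbp11, which the list does not hold, changed by 0.44 ± 0.08 (0.016). At 24 h the difference between doses had been 0.40 for Sdf2l1, 0.19 for Calr, 0.15 for Pdia3, 0.22 for Dnajc3, 0.04 for Pdia6 and -0.01 for Fkbp11. The cytochromes P450 Cyp2c11 (1.05), Cyp2e1 (0.73) and Cyp2c6v1 (0.62), the channel Aqp9 (0.74), the ubiquitin ligase Neurl3 (0.59) and Fgb (0.40) completed the 12. Neurl3 was lower at 200 µM at 24 h (-0.44, adjusted p = 0.00026) and at 48 h differed by 0.15 (0.16). The 8 were Fabp4 (-0.84), the secreted nuclease Dnase1l3 (-0.75), the vitamin E binding protein Afm (-0.62), Csad (-0.51), Fabp3 (-0.47), the cell cycle subunit Cks1b (-0.45), Abhd5 (-0.42) and the transferrin receptor Tfrc (-0.36). Dnase1l3 at 48 h read 2274, 2356, 2094, 2176 and 2149 at 8 µM and 1073, 1177, 1062, 1372 and 874 at 200 µM. Afm at 48 h read 6104, 7326, 6022, 5801 and 6878 at 8 µM and 4005, 3952, 3911, 3292 and 3673 at 200 µM, again with no overlap. The change kept its call with each of the 20 wells left out in turn for 17 of the 20 genes, and the exceptions were Cyp2e1, Fabp3 and Fabp4.

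The lists of cell stress and growth are given by their counts, against 3.17% of all genes higher and 3.8% lower. Of 26 immediate early genes 0 were higher and 0 lower by limma, and the widest differences were 1.18 for Fos (adjusted p = 0.14, unadjusted 0.018) and 0.56 for Egr4 (adjusted p = 0.68). Of 30 cell cycle and replication genes 2 were higher, Ccnd1 (0.56) and Tyms (0.45), and the call of Ccnd1 was lost without replicate 5 of 8 µM or replicate 1, 2, 3 or 4 of 200 µM (adjusted p up to 0.092) and at 0.26 on the mean of its probe sets (0.5). Of 16 p53 and DNA damage genes 2 were higher, Fas (0.43) and Sesn1 (0.32), and 2 lower, Gadd45b (-0.35) and Phlda3 (-0.20). The call of Sesn1 was lost without replicate 2, 3 or 4 of 8 µM or replicate 3, 4 or 5 of 200 µM (adjusted p up to 0.069), and that of Phlda3 without replicate 1 or 3 of 8 µM or replicate 3 or 4 of 200 µM (adjusted p up to 0.063). Of 29 NRF2 and antioxidant genes 5 were lower, with Gclc (-0.35), Cbr1 (-0.28) and Taldo1 (-0.21), and 3 higher, with the cystine carrier Slc7a11 (0.64). Of 25 apoptosis regulators 1 was higher, Casp4 (0.62). Of 42 respiratory chain and citrate cycle genes 1 was higher, Ndufs4 (0.61), and 3 lower. Of 31 autophagy and lysosome genes 5 were lower, with Ctss (-0.53). Shares of the list were 10.3% higher and 17.2% lower for NRF2 and antioxidant genes, 12.5% each way for p53 and DNA damage genes, 16.1% lower for autophagy and lysosome genes and 6.67% higher for the cell cycle. A list without a call is not shown to be free of a difference. Among the 23 transcription factors and markers of hepatocyte identity 4 were lower, with Afm (-0.77) and Cdh1 (-0.40), and 1 higher, Hnf4a (0.21), a call lost without replicate 1, 2 or 4 of 8 µM or replicate 1, 3, 4 or 5 of 200 µM (adjusted p up to 0.081) and at 0.08 on the mean of its probe sets (0.68). The fibronectin gene Fn1 read 10104, 10456, 10759.8, 9749 and 9836 at 8 µM and 13577, 14376, 14988, 14263 and 14056 at 200 µM, and was higher with no overlap (adjusted p = 1.6e-05).

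For the remaining lists the counts again stand against 3.17% of all genes higher and 3.8% lower. Of 23 mitochondrial carriers 5 (21.7%) were lower, with the dicarboxylate carrier Slc25a10 (-0.34) and Slc25a16 (-0.39), and 1 higher, Slc25a33 (0.54), a pyrimidine nucleotide carrier. Of 20 genes of apolipoproteins and lipoprotein secretion 3 were lower, Mttp (-0.48), Scarb1 (-0.39) and Apob (-0.21), and 1 higher, Apoa2 (0.30). The call of Scarb1, the receptor of high-density lipoprotein, was lost without replicate 1 or 5 of 8 µM or replicate 2 or 4 of 200 µM (adjusted p up to 0.061), and that of Apob without replicate 2, 3 or 5 of 8 µM or replicate 2, 3, 4 or 5 of 200 µM (adjusted p up to 0.082). Of 17 genes of the insulin-like growth factor axis 2 were higher, the binding proteins Igfbp4 (0.63) and Igfbp1 (0.31), and 2 lower, Inhbe (-0.48) and Igf1 (-0.19). The call of Igf1 was lost without replicate 1, 2, 3 or 5 of 8 µM or replicate 2, 3, 4 or 5 of 200 µM (adjusted p up to 0.1). Of 17 clock genes 1 was higher, the repressor Bhlhe41 (0.68), a call lost in the fit of all 30 arrays (adjusted p = 0.25) and in that of 29 without the vehicle array that stands apart (0.17). Of 20 genes of metal handling 3 were lower, the transferrin receptor Tfrc (-0.38), the iron carrier Slc11a2 (-0.27) and the iron regulatory protein Ireb2 (-0.38), and 1 higher, the ferroxidase Cp (0.37). The call of Slc11a2 was lost without replicate 2 or 4 of 8 µM or replicate 3 or 4 of 200 µM (adjusted p up to 0.069), that of Ireb2 without replicate 2 of 8 µM or replicate 3 or 4 of 200 µM (adjusted p up to 0.059) and that of Cp without replicate 2, 3 or 4 of 200 µM (adjusted p up to 0.066). Of 14 aldehyde dehydrogenases 1 was lower, Aldh7a1 (-0.25). Of 10 genes of ω-oxidation 1 was higher, Cyp4f1 (0.34), a call lost without replicate 1, 2 or 4 of 8 µM or replicate 1, 3, 4 or 5 of 200 µM (adjusted p up to 0.093). Of 37 genes of the cytoskeleton, matrix and dedifferentiation 2 were higher, Tgfb2 (0.66) and Fn1 (0.48), and 2 lower, Acta2 (-0.47) and Lgals3 (-0.21), where Tgfb2 gave -0.05 on the mean of its probe sets and Lgals3 lost its call without replicate 1, 2, 3 or 4 of 8 µM or replicate 1, 2, 3 or 5 of 200 µM (adjusted p up to 0.1). Of all 43 lists together, 894 of 1047 distinct genes were measured, 52 were below the filter and 101 had no probe set of their own symbol.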

How the data were processed

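RNA of 30 culture wells was hybridised to 30 rat expression arrays, 5 for each of 6 groups of time and dose, and the comparison uses 10 of them. The authors deposited MAS5 signals, an intensity on a linear scale, per the submitters' processing notes; the version and target scaling are not given in the sources used here. Depth does not apply to arrays, and their number limits the precision. Of 31099 probe sets, 57 were controls, 20826 carried 1 gene symbol in the platform annotation, 436 several and 9780 none. Probe sets were kept with a signal over 281.4, the 40th percentile of the 30 arrays, on at least 5 arrays, which left 21282, of them 15629 with 1 symbol. Each of 11545 genes was represented by its brightest probe set, by mean log2 signal. Deposited signals were taken as log2(signal + 16), with no further scaling, and fitted on the 10 arrays alone with limma 3.58.1 (R 4.3.3; lmFit and eBayes with a variance trend), two-sided, with Benjamini-Hochberg adjustment over all genes and a threshold of 0.05. Errors beside differences are standard errors of that fit, with n = 5 wells a dose; other sums and figures used Python 3.11.15, pandas 2.3.3 and matplotlib 3.10.9. The fit was checked on simulated data. Among the 5653 kept probe sets with no or several symbols, 37 were higher and 42 lower, and they are not named.

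The comparison and the gene lists were chosen with earlier results of these data known, so no list count is independent support. Named genes are the 15 largest differences in each direction among genes past the threshold whose doses did not overlap (the 10 largest are printed), for each list the 4 members with the largest moderated statistic, all members of the list of PPARα targets, and the 5 largest changes of each sign between times; other printed genes were chosen after their values were seen. Replicates are numbered in the order of the samples, and no label ties wells of the same number. Alternatives varied the added constant, scaling, filter, probe set rule, arrays fitted, variance model, array weights, a block and the fold threshold.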

Additional observations from a re-analysis of the deposited data

Results flagged for a closer look

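Among 104 groups of 5 wells or arrays, 4 held a highest or lowest value farther from the rest than the 95% critical value for 5 samples allows, and chance gives about 1 in 20 groups. Cyp4a1 read 66143.9 in replicate 5 of the 200 µM wells, below the other 4. Cyp2c6v1 read 7154.0 in replicate 4 of the 8 µM wells, below the other 4. Cfd read 286.3 in replicate 3 of the 200 µM wells, below the other 4. The median signal of the array was 765.5 for replicate 4 of the 48 h vehicle wells, above the other 4.

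The difference between doses was not the same at 48 h as at 24 h for 20 genes, by the limma test of the change itself over the 20 treated arrays. The change, 48 h minus 24 h on the log2 scale, was positive for Sdf2l1 (1.27, adjusted p = 0.00037), Cyp2c11 (1.05, 0.0089), Aqp9 (0.74, 0.0063), Cyp2e1 (0.73, 0.019), Cyp2c6v1 (0.62, 0.0028), Neurl3 (0.59, 0.0015), Calr (0.55, 0.013), Pdia3 (0.50, 0.0089), Fkbp11 (0.44, 0.016), Pdia6 (0.42, 0.0015), Dnajc3 (0.42, 0.0038) and Fgb (0.40, 0.016). It was negative for Fabp4 (-0.84, adjusted p = 0.019), Dnase1l3 (-0.75, 0.0049), Afm (-0.62, 0.0015), Csad (-0.51, 0.0024), Fabp3 (-0.47, 0.019), Cks1b (-0.45, 0.0031), Abhd5 (-0.42, 0.018) and Tfrc (-0.36, 0.013).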

How the results depend on the processing

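Against 366 genes higher and 439 lower at 48 h, the fit of the 15 arrays of 48 h gave 108 and 155, the fit of all 30 arrays 261 and 292, the fit with no variance trend 199 and 267, and a fold change of at least 1.5 left 59 and 68. Of the 10 lower genes of mitochondrial β-oxidation these first 3 fits kept a count of 1, 4 and 2. The fit of 15 arrays gave 7 lower genes of cholesterol synthesis and 4 higher proteasome subunits, no variance trend 5 proteasome subunits and quantile normalization 20. Quantile normalization otherwise gave 422 and 465 genes and median centring 311 and 430. The fit of all 30 arrays called a change between times for 7 genes upward and 2 downward. With the run of 6 consecutive array numbers as a replicate block, 537 genes were higher and 589 lower at 48 h, 15 proteasome subunits were higher, and 291 and 360 genes were called at 24 h; no label says whether wells of 1 run share a culture or day. Leaving out 1 array at a time gave 227 to 398 higher genes, 325 to 452 lower genes, 6 to 10 lower genes of mitochondrial β-oxidation, 13 to 15 of cholesterol synthesis, 9 to 10 higher ER chaperones and 7 to 11 higher proteasome subunits, and 228 to 261 higher and 280 to 334 lower genes at 24 h. Chosen after seeing the data, fits without the vehicle array that stands apart gave 425 and 458 genes with 14 arrays and 501 and 536 with 29. Of 198 genes named by rule, 147 were called and 78 of these kept their call under every alternative run; 22 lost it without some array. Tgfb2 turned to -0.05 on the mean of its probe sets. Causes were not tested. Signals below the filter level are close to background, so differences of dim genes are the least certain.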
